A study of Rattus norvegicus with 18 samples.

Results

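The genes of the cytosolic ribosomal proteins were followed in rat blood. They were chosen by name: each array probe was taken whose transcript accession maps in RefSeq to a symbol of Rpl or Rps followed by a digit, or to Rplp0, Rplp1 or Rplp2, leaving out the kinases of the Rps6k family, pseudogenes and symbols not yet assigned to a named gene. The rule found 140 of the 30367 probes on the array, for 80 genes, and all 140 passed the filter on dim probes, beside 13616 named genes tested in all. The 80 genes were 41 of the large subunit, 29 of the small subunit, 3 of the stalk and 7 paralogs or gene copies (Rpl3l, Rpl22l1, Rpl27l2, Rpl36al1, Rpl37l1, Rpl39l1 and Rps12l4). Some of the cytosolic ribosome's proteins had no probe under the rule, Rpl26, Rpl37 and Rps9 among them. Most ribosomal protein genes have near-identical processed copies elsewhere in the genome, so a probe of a member may also bind transcripts of such copies.

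The study compared male Brown Norway (BN) and male Sprague Dawley (SD) rats in their reaction to procainamide, an antiarrhythmic drug known for inducing lupus-like autoimmunity. There were 4 BN and 5 SD rats' samples given sterile water (control), and 4 BN and 5 SD samples given procainamide at 40 mg/kg; all groups had blood drawn at the end of treatment. Each sample was hybridised in Cy5 against, by the labels, control replicate 1 of its own strain in Cy3. Age and the length of treatment are not given in the sources used here. The labels do not say that each sample was a separate animal, so the spread that the tests use may in part be technical. On the array of control replicate 1 both channels carry the same labelled sample.

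Ribosomal proteins and ribosomal RNA form the small subunit, which decodes the messenger RNA, and the large subunit, which joins amino acids. The stalk proteins recruit the elongation factors to the large subunit. Most mRNAs of these proteins start with a run of pyrimidines (the 5′ terminal oligopyrimidine, or TOP, tract), through which mTOR signalling and the protein Larp1 control their translation and stability. In blood, lymphocytes, young platelets and immature red cells carry these mRNAs, and mature red cells have lost their ribosomes.

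Because that shared start is the sequence trait for which the family is known, the bases around the annotated start were read from RefSeq promoters (build GRCr8), which held 65 of the 80 genes. A tract was counted where a C followed by at least 4 more pyrimidines (C or T) on the gene's strand began within 5 bases of the start; the other strand was not searched, and the base before the C could be any. It was found in 39 of the 65 members (60%) and in 4656 of all 27457 promoters of the table (17%). It was held by 12 of the 19 members with a promoter that were lower in BN rats in the test below, and by 27 of the other 46. The tract was found in 14 of 55 mitochondrial ribosome genes (25.5%) and in 5 of 14 genes of the elongation and other TOP list (35.7%). The match depends on where the start is annotated, and a missing match says only that these letters are not in that window.

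To show the trait and its absence among genes that were lower in BN rats, 6 members are printed from 25 bases before to 20 bases from the start on, with the counted tract in capitals. Rpl27a lies at chr1:172974548-172974592 (plus strand), Rpl35 at chr3:43165902-43165946 (minus strand), Rpl13 at chr19:68062489-68062533 (plus strand) and Rplp0 at chr12:46718371-46718415 (minus strand). Rps12 at chr1:23500050-23500094 (plus strand) and Rpl27l2 at chr1:162566045-162566089 (minus strand) have no counted tract.
Rpl27a: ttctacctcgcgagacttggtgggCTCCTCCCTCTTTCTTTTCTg
Rpl35: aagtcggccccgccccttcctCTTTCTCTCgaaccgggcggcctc
Rpl13: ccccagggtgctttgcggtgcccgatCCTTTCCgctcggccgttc
Rplp0: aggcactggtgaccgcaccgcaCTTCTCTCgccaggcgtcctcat
Rps12: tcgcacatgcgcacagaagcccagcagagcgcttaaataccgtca
Rpl27l2: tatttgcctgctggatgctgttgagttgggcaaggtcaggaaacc
The counted tract had 20 bases in Rpl27a, 9 in Rpl35, 7 in Rpl13 and 8 in Rplp0. Counting began inside the window, so lengths are not compared: the whole run of pyrimidines that holds the tract had 18 bases in Rpl35 and 8 in Rpl13.

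The values below are log2 ratios of Cy5 over Cy3, so 0 means equal signal in both channels, and a difference of 1 between groups is a doubling. The number of arrays limits their precision. The array's median Cy5 signal was 27.8 to 50.7 times its background. No spot was saturated. Markers of red cells (Hbb, Alas2), neutrophils (S100a8), platelets (Pf4), T cells (Cd3e) and B cells (Cd79b) were well above background on all 18 arrays. So were Ccl21, Pigr, Mgp and Fcna, genes better known from lymphoid, epithelial and connective tissue; their part in the results was not tested. The arrays lay on 3 slides: slide 2 held all 4 BN controls and SD procainamide 4 and 5, slide 3 held all 4 BN procainamide samples, and slide 1 held the other 8 SD arrays. Slide 2 was scanned on day 2 and the other slides on day 1. Within BN rats slide, scan day and treatment therefore cannot be told apart. The median Cy5 signal was 997 to 1986 on the BN controls and 1693.5 to 3187 on the BN procainamide arrays, so brightness differed in part with treatment too.

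The members were among the brightest genes on the array. Their median brightness (mean of both channels in log2) was 16.2, against 11.6 over all named genes, and 75 of 80 lay above 15. Only Rpl3l, Rpl27l2, Rps12l4 and Rpl39l1, all of them paralogs or copies, lay below 9.

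As a group, the members had lower ratios on the BN procainamide arrays than on those of the other groups. The median over the 80 genes was 0.13, 0.29, 0.22 and 0.24 on BN control 1 to 4, and 0.07, 0.02, -0.02 and 0.06 on BN procainamide 1 to 4. All 4 treated BN arrays lay below all 4 controls. The medians were 0.30, 0.17, 0.15, 0.20 and 0.16 on SD control 1 to 5, and 0.19, 0.27, 0.21, 0.34 and 0.14 on SD procainamide 1 to 5, where the groups overlapped. The median was above 0 on 17 of 18 arrays. This included the arrays of control replicate 1 in both strains (0.13 and 0.30), where the labels name the same sample in both channels. A ratio above 0 is therefore not read as a level above the reference, and only differences between groups are read below. With the scanner software's own ratios the BN medians overlapped, from 0.01 to 0.16 on the controls and from -0.03 to 0.06 with procainamide.

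**Figure D1:**
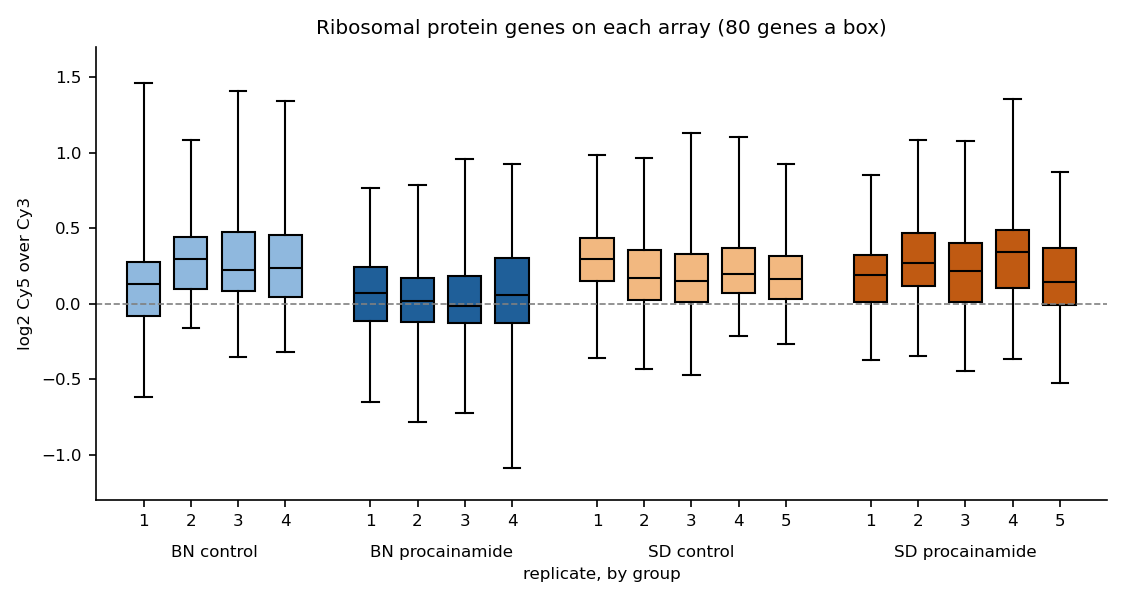
Log2 Cy5 over Cy3 of the 80 ribosomal protein genes on each of the 18 arrays. Boxes span the quartiles with the median as a line, and whiskers reach the lowest and highest gene; the medians of the 4 BN procainamide arrays, between -0.02 and 0.07, lie below those of all other arrays.

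In BN rats, 24 of the 80 ribosomal protein genes (30%) were lower with procainamide and 0 were higher (limma, Benjamini-Hochberg adjusted p under 0.05 over all probes tested). Over all named genes, 13.8% were lower and 8.99% higher. The median difference of the members was -0.18 and that of all named genes -0.02. Below 0 lay 65 of 80 members, against 7144 of the 13616 named genes. Of the 80, 33 had an unadjusted p under 0.05, against 4849 of the 13616 named genes. All 4 treated arrays lay below all 4 controls for 20 members (25%, against 11.8% of all named genes), and above them for 1 member, Rpl36al1 (8.18% of all named genes). The 75 members brighter than 15 were set beside the other named genes of that brightness, a background chosen after the data had been seen. Among them 29.3% of members were lower and 0 higher, against 4.86% lower and 14.9% higher of 699 others, whose median difference was 0.07.

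The large subunit had 12 of its 41 genes lower, with a median difference of -0.20. Rpl17, a protein at the mouth of the exit tunnel for the growing chain, had the smallest p of all members. Its ratios were 0.26, 0.62, 0.61 and 0.68 on the BN controls and 0.15, -0.14, -0.06 and -0.08 on the BN procainamide arrays. The groups did not overlap, although BN control 1 lay apart from the other controls. The difference was -0.58 ± 0.09 (SE, adjusted p = 0.000476), or 1.49-fold lower. Rpl35, its neighbour at the exit tunnel, had 0.62, 0.67, 0.89 and 0.59 on the controls and 0.34, 0.24, 0.28 and 0.33 with procainamide. The treated arrays all lay within a narrow band below the controls (difference -0.40 ± 0.09, adjusted p = 0.00492). Rpl27a, another protein of the large subunit, read 0.38, 0.36, 0.51 and 0.75 on the controls and -0.25, 0.18, 0.13 and -0.09 on the treated arrays. It too fell without overlap, by 0.51 ± 0.13 (adjusted p = 0.00985).

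Rpl14 and Rpl13 of the large subunit were lower as well. For Rpl14 the BN controls had 0.23, 0.30, 0.48 and 0.33 and the treated arrays -0.31, -0.11, -0.22 and 0.15, with no overlap (difference -0.46 ± 0.11, adjusted p = 0.00604). This fall was not seen in the Cy5 channel alone, where the difference was -0.07. Rpl13 had 0.39, 0.48, 0.73 and 0.54 on the controls and 0.02, 0.08, -0.07 and 0.24 on the treated arrays (difference -0.47 ± 0.12, adjusted p = 0.00999). Rpl23a, the tunnel protein to which the signal recognition particle docks, was lower by the test (-0.33 ± 0.08, adjusted p = 0.0103). Its groups overlapped, since BN procainamide 4 read 0.29 and the lowest control 0.26.

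Rpl5 and Rpl11 join the smallest ribosomal RNA in a particle that can also bind the p53 regulator Mdm2. Rpl5 was lower, from 0.14, 0.14, -0.10 and 0.24 to -0.65, -0.24, -0.15 and -0.23 (difference -0.42 ± 0.12, adjusted p = 0.0171). Rpl11 had a difference of -0.16 ± 0.14 (adjusted p = 0.449), and its treated arrays, from -0.03 to 0.69, spanned its controls. Rpl13a, also known for silencing of inflammatory mRNAs once released from the ribosome, was lower by 0.55 ± 0.16 (adjusted p = 0.0246) with overlapping groups. The most positive difference was that of Rpl35a, 0.32 ± 0.14, which did not pass (adjusted p = 0.0996).

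**Figure D2:**
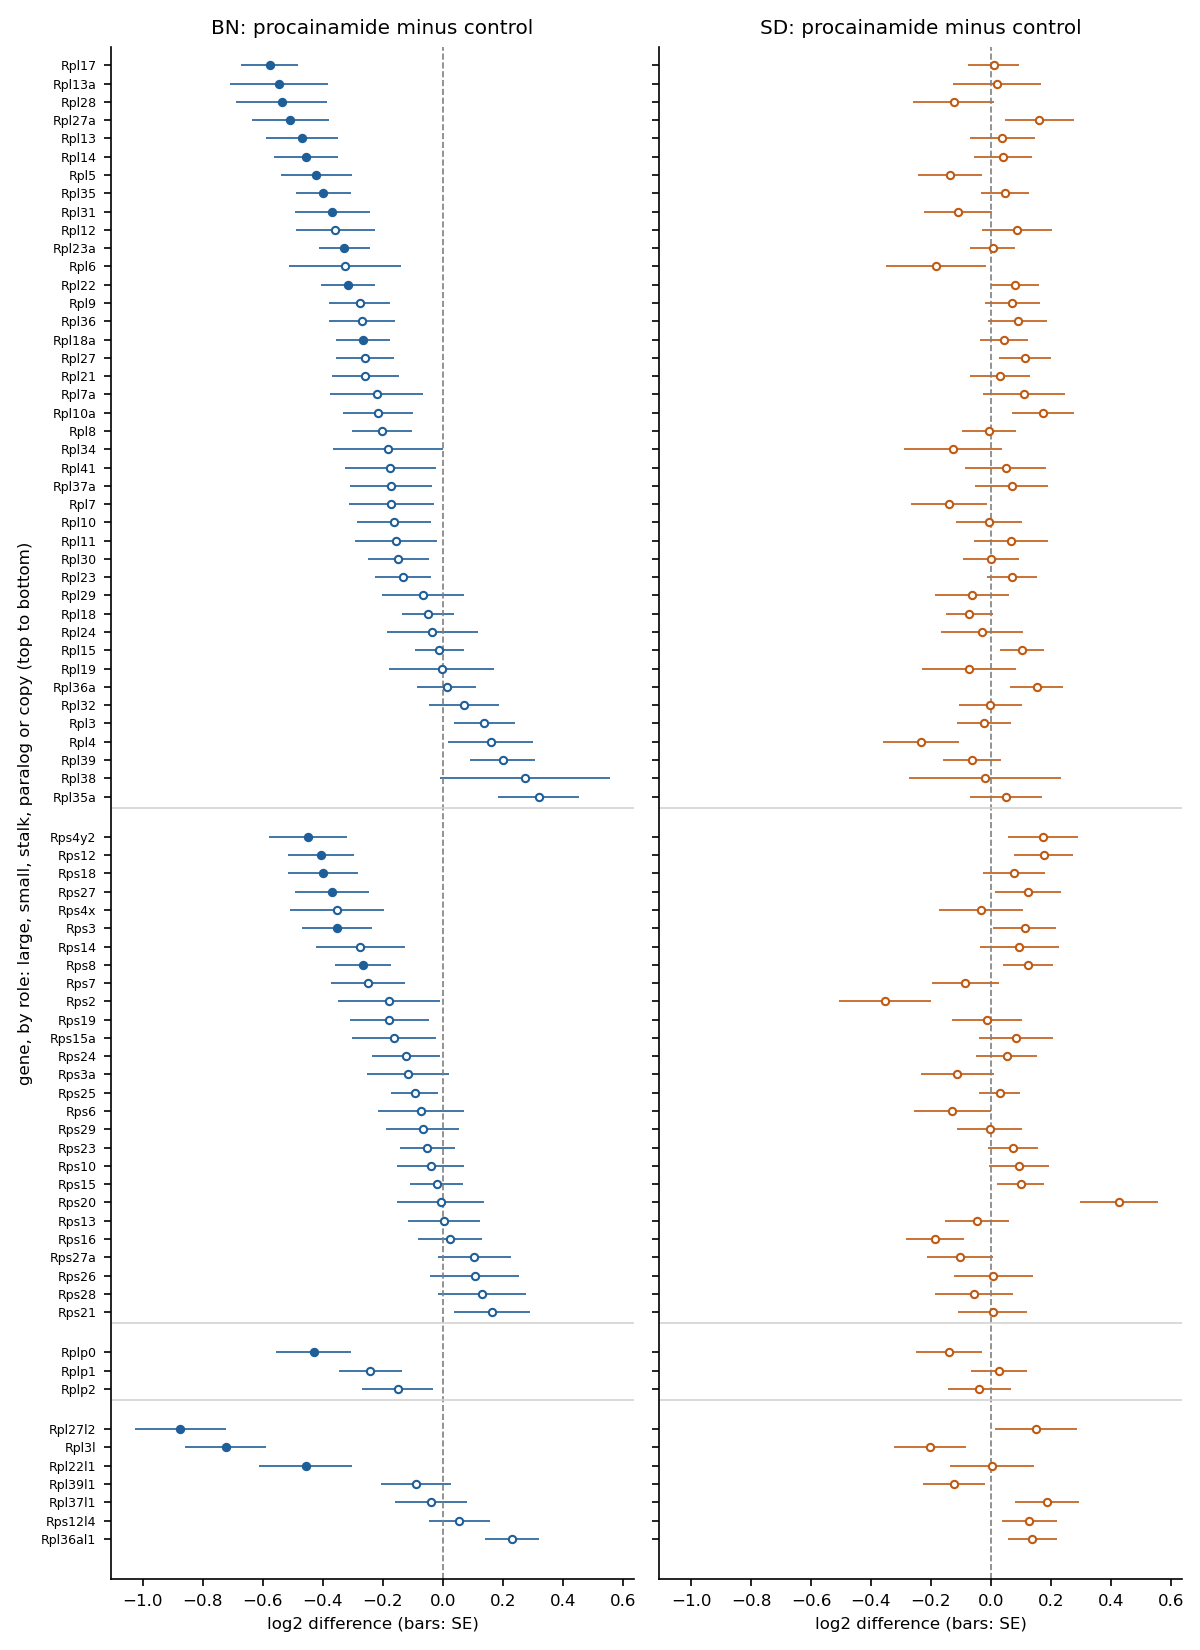
Difference of group means (procainamide minus control, log2) of 78 of the 80 genes in BN (left) and SD rats (right), sorted within large subunit, small subunit, stalk, and paralogs or copies. Bars are standard errors and filled points have an adjusted p under 0.05; 22 of these points are filled in BN rats, all left of 0, and 0 in SD rats. The other 2 genes are not drawn because their values are not reported here.

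The small subunit had 8 of 29 genes lower, with a median difference of -0.12. Rps12, a small subunit protein known from its role in cell competition in flies, had ratios of 0.01, 0.21, 0.33 and 0.22 on BN controls and 0.08, -0.36, -0.31 and -0.25 on treated arrays. BN procainamide 2 to 4 lay below all controls and BN procainamide 1 lay among them (difference -0.41 ± 0.11, adjusted p = 0.0136). Rps6, the substrate of the S6 kinases downstream of mTOR, had a difference of -0.07 ± 0.14 (adjusted p = 0.763). Rps14 and Rps19, whose loss causes failure of red cell formation in humans, had -0.28 ± 0.15 (adjusted p = 0.199) and -0.18 ± 0.13 (adjusted p = 0.358). Rps27a, made as a fusion with ubiquitin, had 0.11 ± 0.12 (adjusted p = 0.583). These values are of each gene's brightest probe. A dimmer probe of Rps19 was lower (-0.49 ± 0.12, adjusted p = 0.00822), and so was a dimmer probe of Rps6 (-0.33 ± 0.11, adjusted p = 0.0423). For Rps27a a dimmer probe was higher (0.36 ± 0.11, adjusted p = 0.0326). The remaining probe of Rps19 (-0.20 ± 0.11) and the dimmer probe of Rps14 (0.02 ± 0.10) did not pass.

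Of the 3 stalk genes, Rplp0, which anchors the others to the ribosome, was lower in BN rats. Its ratios were 1.46, 1.09, 0.98 and 1.11 on the controls and 0.77, 0.79, 0.96 and 0.40 with procainamide, just without overlap (difference -0.43 ± 0.12, adjusted p = 0.0202). Rplp1 had -0.24 ± 0.11 (adjusted p = 0.11) and Rplp2 -0.15 ± 0.12 (adjusted p = 0.394).

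Paralogs and gene copies held the largest falls, 3 of 7 passing the test. Rpl27l2, a copy of the Rpl27 gene, went from 1.04, 0.88, 0.97 and 1.34 to 0.49, -0.01, 0.28 and -0.02. All treated arrays lay below all controls (difference -0.88 ± 0.15, adjusted p = 0.00076). Rpl3l, which takes the place of Rpl3 in ribosomes of heart and skeletal muscle, had 0.07, 0.00, 0.08 and 0.24 on the BN controls and -0.37, -0.79, -0.25 and -1.09 on the treated arrays. Its treated arrays were lower without overlap but spread widely (difference -0.72 ± 0.13, adjusted p = 0.0013). Rpl3 itself had 0.14 ± 0.10 (adjusted p = 0.352). Rpl22, needed for T cell development, and its paralog Rpl22l1 both passed, with -0.32 ± 0.09 (adjusted p = 0.0174) and -0.46 ± 0.16 (adjusted p = 0.0447). The sign of Rpl22l1 turned in the Cy5 channel alone (0.11). Rps4x, the gene of a small subunit protein on the X chromosome, and its relative Rps4y2 were both counted with the small subunit. Of this pair Rps4y2 was lower (-0.45 ± 0.13, adjusted p = 0.0208). Rps4x had -0.35 ± 0.16 (adjusted p = 0.119).

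**Figure D3:**
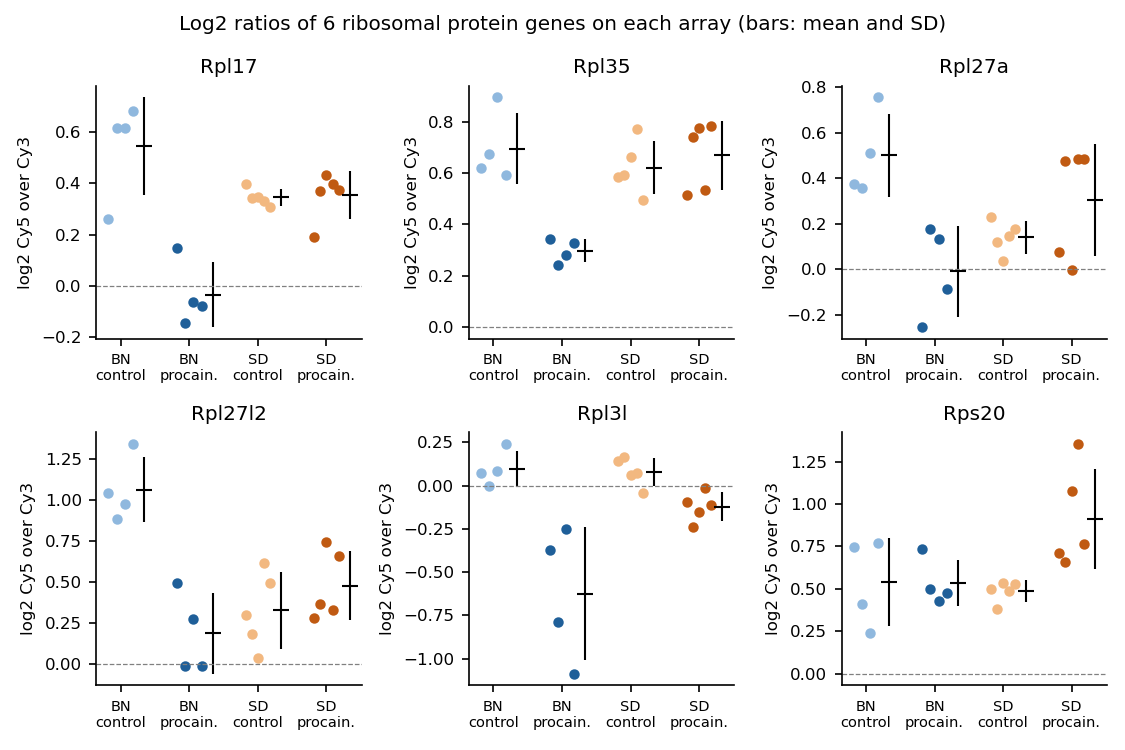
Log2 Cy5 over Cy3 of Rpl17, Rpl35, Rpl27a, Rpl27l2, Rpl3l and Rps20 on each array, by group; bars give the mean and SD and the vertical scale differs between panels. The first 5 lie lower on the BN procainamide arrays than on the BN controls, and Rps20 lies higher on all SD procainamide arrays (0.66 or more) than on the SD controls (0.54 or less).

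Probes of the same gene gave like results in part. Of 46 genes with more than 1 probe, 34 had all probes on the same side of 0 in the BN comparison, and the median spread between a gene's probes was 0.19. The widest spread, 0.61, was that of Rpl28. Among the genes named above as lower, a dimmer probe also passed for Rps12 and Rpl22. Rpl35 had a dimmer probe that passed and another that did not. The dimmer probe of Rpl17 did not pass (-0.26 ± 0.09, adjusted p = 0.0502), nor did that of Rpl23a (-0.06 ± 0.12, adjusted p = 0.762). Those of Rpl14, Rplp0, Rpl22l1 and Rps4y2 did not pass either. Over all 140 probes 32 were lower in BN rats and 1, a probe of Rps27a, was higher. The shares over all named genes, counted by gene and not by probe, were 13.8% lower and 8.99% higher. In BN rats 0 genes had probes that passed in opposite directions.

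The count in BN rats depended on how the ratios were made. With the scanner software's own ratios 9 members were lower (11.25%, against 11.8% of all named genes) and 1 was higher (1.25%, against 10.4%), so the share of members lower was near that of all genes. The median difference was then -0.08. All 9 were among the 24, with Rpl17, Rpl22, Rpl22l1, Rpl27a, Rpl27l2, Rpl3l, Rps18 and Rps4y2 among them. Setting each array's median to 0 without loess gave 44 lower (55%, against 15.1% of all named genes) and a median of -0.41. In the Cy5 channel alone 24 were lower (30%, against 16.3%), of which 14 were among the 24 of the reported fit. With scan day or with the array's brightness as a term, 0 members passed (0.375% and 1.92% of all named genes were lower), while the median stayed at -0.17 and -0.16; the scan day term rests on the SD procainamide arrays, the only group scanned on both days. Leaving out BN control 4 gave 11 lower (13.75%, against 9.87% of all named genes). Without BN procainamide 2 there were 15 (18.75%, against 10.5%). Rpl27a and Rpl17 passed in 21 of 23 alternatives, Rpl3l and Rpl27l2 in 20 of 22, and none of these 4 passed with scan day (adjusted p = 0.735, 0.148, 0.243 and 0.155) or with brightness as a term. The alternatives are not independent checks, since they use the same arrays or a part of them. The deposited log2 ratios track the scanner's own, and leaving out paralogs does not change the fit of the other genes.

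**Figure D4:**
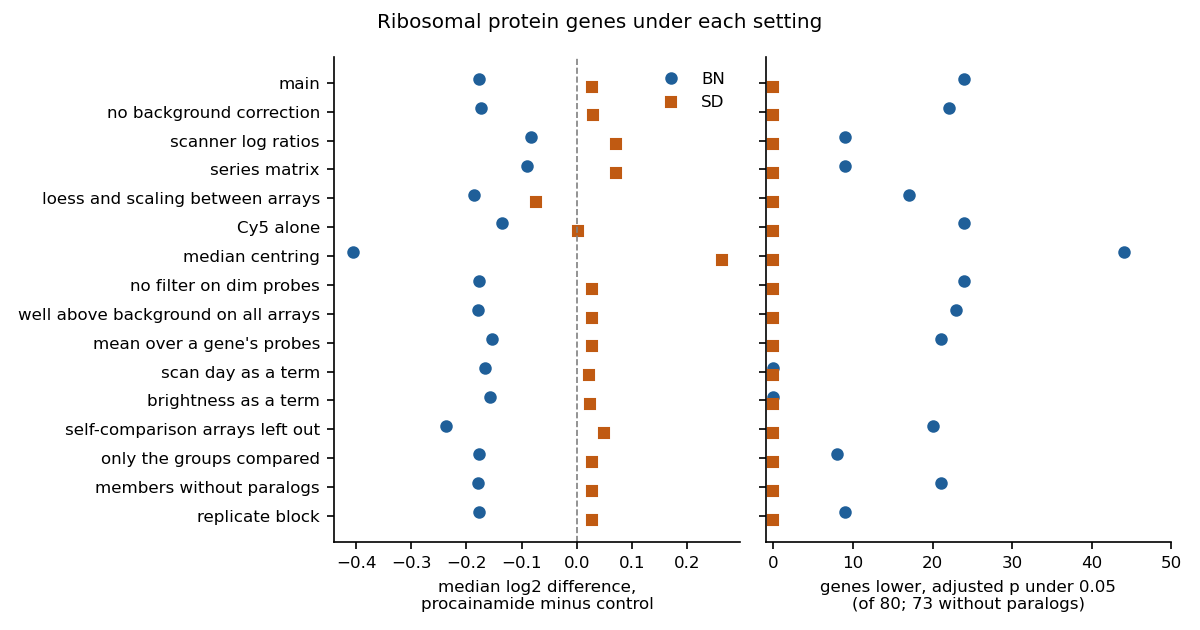
Median log2 difference of the ribosomal protein genes (left) and number of them lower (right) in BN (circles) and SD rats (squares) under the reported and the alternative settings. The BN median lies below 0 throughout, from -0.41 to -0.08, while the count runs from 0 to 44; the SD count is 0 throughout.

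Markers of blood cells were read in the same comparison, beside the shares over all named genes, 13.8% lower and 8.99% higher. In BN rats, 5 of 9 platelet genes were lower and 0 higher (median difference -0.42; Ppbp -1.25 ± 0.38, adjusted p = 0.0244). The mean of the platelet list on an array ran from -0.20 to 0.32 in BN controls and from -0.75 to -0.14 with procainamide. Of 11 neutrophil genes 2 were higher (median 0.77), with list means from -0.48 to 0.17 in controls and from -0.46 to 0.98 with procainamide. Of 8 monocyte genes 2 were higher (median 0.22; Lyz2 1.29 ± 0.24, adjusted p = 0.00146). Of 9 erythroid genes 1 was lower (median -0.35), and their list mean varied most, from -1.97 to 1.46 in controls and from -2.00 to -0.15 with procainamide. T cell genes had 2 of 15 higher and 1 lower, B cell genes 1 of 8 lower, and NK cell genes 1 of 7 higher. In lists this short such counts are near the shares over all named genes, so no change is read for these cells. In SD rats 0 of the 9 platelet genes passed, though 8 lay below 0 and 1 above (median -0.20). Their list mean ran from -0.17 to 0.10 in SD controls and from -0.51 to -0.13 with procainamide. The part of cell composition in the fall of the ribosomal protein genes in BN rats was not tested. In such bulk samples fewer cells of a type and less RNA per cell cannot be told apart.

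In SD rats, 0 of the 80 members passed the test in either direction, against 1.76% lower and 1.42% higher over all named genes. With unadjusted p under 0.05 there were 2, against 2522 of the 13616 named genes. Every alternative tried gave 0 lower, and all gave 0 higher but setting array medians to 0, which gave 2 (2.5%, against 1.03% of all named genes). The median difference was 0.03, and 48 of 80 lay above 0, against 6588 of the 13616 named genes. Rps20, a small subunit protein, came nearest to the threshold. Its SD controls had 0.50, 0.38, 0.54, 0.49 and 0.53 and the treated arrays 0.71, 0.66, 1.08, 1.36 and 0.77. The groups did not overlap (difference 0.43 ± 0.13, adjusted p = 0.085), which was so upward for 1 member, against 4.38% of all named genes. Rps2 was the 1 member with all treated SD arrays below the controls (4.54% of all named genes). It had 0.38, 0.34, 0.17, 0.30 and 0.14 against 0.10, 0.11, -0.23, -0.06 and -0.35 (difference -0.35 ± 0.15, adjusted p = 0.247). These are values of its brightest probe. Its dimmer probes had SD differences of -0.016, -0.048 and 0.001. In BN rats Rps20 had a difference of -0.01 ± 0.14 and Rps2 one of -0.18 ± 0.17.

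None of the members that fell in BN rats passed the test in SD rats. Rpl17 had 0.01 ± 0.08 in SD rats, with a 95% interval from -0.17 to 0.19, and Rpl35 had 0.05 ± 0.08, from -0.12 to 0.22. For Rpl27a the value was 0.16 ± 0.12 and for Rpl3l -0.20 ± 0.12, neither past the threshold. On slide 1 alone, which holds 5 SD controls and 3 SD procainamide arrays, the median member difference was 0.02 and again 0 passed.

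The difference between the strains' responses was tested itself. The BN response was lower than the SD response for 9 of 80 members (11.25%, against 7.54% of all named genes) and higher for 0 (3.15%), and the median of the difference was -0.21 against 0.01 over all named genes. They included Rpl27l2 (-1.03 ± 0.20, adjusted p = 0.00451), Rpl17 (-0.59 ± 0.13, adjusted p = 0.00682), Rps12 (-0.58 ± 0.15, adjusted p = 0.0174), Rpl27a (-0.67 ± 0.17, adjusted p = 0.0196), Rpl35 (-0.45 ± 0.12, adjusted p = 0.0246), Rps4y2 (-0.62 ± 0.18, adjusted p = 0.0294), Rpl14 (-0.50 ± 0.14, adjusted p = 0.0332) and Rpl22 (-0.40 ± 0.12, adjusted p = 0.0407). All 9 were also among the 24 lower in BN rats. Both contrasts use the same BN arrays. The dimmer probe of Rpl17 did not pass here (-0.24 ± 0.12, adjusted p = 0.212), nor did those of Rpl14 and Rps4y2. Those of Rps12 and Rpl22 passed, and Rpl35 had a dimmer probe that passed and another that did not. Rpl13 missed the threshold (-0.51 ± 0.16, adjusted p = 0.0509), as did Rpl3l (-0.52 ± 0.18, adjusted p = 0.0717). For Rps12 the SD controls read -0.04, -0.16, -0.24, -0.02 and -0.16 and the SD procainamide arrays -0.11, -0.08, 0.07, 0.31 and 0.07, mostly higher, whereas its BN ratios fell. With the scanner's ratios the count was 5 (6.25%, against 6.27% of all named genes), again near the share of all genes. It was 0 with scan day or brightness as a term, and 1 (Rpl27l2; 1.25%, against 3.81%) with the replicate block. It was 5 without BN control 4, without SD control 2 and without SD procainamide 4.

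The controls of both strains were compared in the Cy5 channel alone, in log2 intensity, since each strain had its own reference. BN controls were higher than SD controls for 11 members (13.75%, against 16.3% of all named genes) and lower for 7 (8.75%, against 20.5%), with a median difference of 0.03. The split depended on scaling. With Cy5 set to each array's median, 67 were higher and 0 lower, and with scan day as a term 1 was higher and 0 lower, so no direction is read for the family. All 5 SD controls lay on slide 1 and all 4 BN controls on slide 2, so slide, scan day and strain cannot be told apart within the controls either.

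Rpl3l stood far out among these. Its log2 Cy5 intensity was 10.18, 9.85, 10.06 and 10.18 on BN controls and 8.17, 8.28, 8.22, 8.20 and 7.85 on SD controls. The groups were apart by 1.93 ± 0.16 (adjusted p = 4.17e-07), or 3.80-fold. Its relative Rpl3 differed by -0.08 ± 0.07 (adjusted p = 0.398). Rpl27l2 (0.59 ± 0.12, adjusted p = 0.00106), Rps4y2 (0.51 ± 0.12, adjusted p = 0.00351) and Rplp1 (0.34 ± 0.09, adjusted p = 0.00533) were higher in BN controls. Rpl34 (-0.41 ± 0.09, adjusted p = 0.00171) and Rps29 (-0.34 ± 0.10, adjusted p = 0.0125) were lower, but both signs turned when Cy5 was set to each array's median. Rps12l4, a gene copy, was lower by 0.44 ± 0.09 (adjusted p = 0.00169). Rpl22l1 was lower by 0.63 ± 0.18 (adjusted p = 0.00956), with 14.03, 15.10, 15.15 and 14.93 against 15.52, 15.33, 15.39, 15.52 and 15.40; here BN control 1 was far below the rest. These are values of its brighter probe. The dimmer probe was higher in BN controls (0.62 ± 0.12, adjusted p = 0.000864), so no direction is read for Rpl22l1. The same held for Rps6, whose brighter probe was lower (-0.24 ± 0.09, adjusted p = 0.0329) and whose other probe was higher (0.28 ± 0.10, adjusted p = 0.032). In the other 3 comparisons 0 members had probes that passed in opposite directions.

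The other translation lists were read in BN rats beside the share of all named genes, 13.8% lower and 8.99% higher. Of 67 mitochondrial ribosome genes 1 was lower and 5 were higher (median 0.01), among them Mrpl37 (0.52 ± 0.10, adjusted p = 0.00169) and Mrpl47 (0.54 ± 0.11, adjusted p = 0.00227), with Mrps11 lower (-0.47 ± 0.11, adjusted p = 0.00585). Of 20 elongation and other TOP genes 1 was lower (median 0.02). It was Tpt1, the gene of a translationally controlled tumour protein (-0.30 ± 0.10, adjusted p = 0.0354). The factor Eef1a1, which brings aminoacyl-tRNA to the ribosome, had -0.23 ± 0.13 (adjusted p = 0.212). Rack1, a scaffold on the small subunit, had -0.24 ± 0.21 (adjusted p = 0.446). Fau, which encodes a ribosomal protein as a fusion and carries another name, had 0.01 ± 0.16 (adjusted p = 0.968).

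Among 21 initiation factors 1 was higher and 0 lower (median 0.08), namely Eif3c (0.33 ± 0.09, adjusted p = 0.0111). Of 26 ribosome biogenesis genes 1 was higher, Nop2 (0.36 ± 0.09, adjusted p = 0.00889), with a median of -0.05. Of 13 mTOR pathway genes 2 were higher, Mlst8 (0.42 ± 0.11, adjusted p = 0.00978) and the S6 kinase gene Rps6kb2 (0.41 ± 0.12, adjusted p = 0.0173). The other 2 that passed were lower, namely Tsc1, a brake on mTOR (-0.40 ± 0.13, adjusted p = 0.0324), and Eif4ebp2, a repressor of cap-dependent initiation (-0.37 ± 0.12, adjusted p = 0.0315). In SD rats 0 genes of these 5 lists passed.

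**Figure D5:**
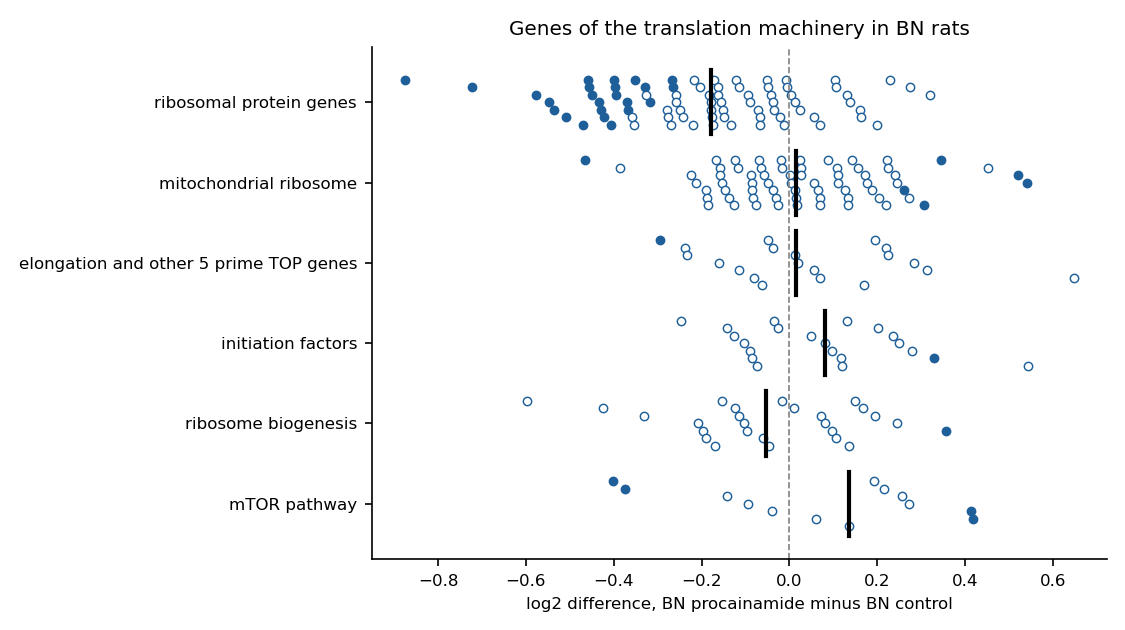
Log2 difference between BN procainamide and BN control of each gene in 6 lists of the translation machinery. Points are genes, filled where the adjusted p is under 0.05, spread vertically for visibility, and the black bar is the list's median; it is -0.18 for the ribosomal protein genes and between -0.05 and 0.14 for the other lists.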

How the data were processed

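Per the file headers, the authors' scanner files hold median spot and background intensity in both channels and processed intensity, from Feature Extraction 10.7.1.1. The log10 ratios of processed Cy5 over Cy3 are deposited in the same files, which also hold flags. A deposited matrix gives log2 ratios, which tracked the scanner's log ratios with r of at least 0.999 on each of the 18 arrays, so they are Cy5 over Cy3 and not centred by gene; column medians ran from -0.014 to 0.0653.

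Median intensities were corrected with normexp (offset 50) and normalised by loess within arrays in R 4.3.3 with limma 3.58.1. Spots were averaged per probe. The 26446 of 30367 probes whose Cy5 signal stood well above background on 4 or more arrays were tested with a mean for each of 4 groups on 18 arrays (14 residual degrees of freedom), 2-sided, adjusted by Benjamini and Hochberg. A gene is its brightest probe. Probes were named through RefSeq accessions. The procedure was tested on simulated data.

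The genes, the lists and the genes named (the smallest p in each comparison, the extremes, the stalk, paralog pairs and proteins with known other roles) were chosen with earlier results of these data known. Members are described by counts and medians, with no test of the list. The values of some genes are not reported here, though the counts include them.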

Additional observations from a re-analysis of the deposited data

Results flagged for a closer look

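In 144 groups of values (35 named genes and the member median, in 4 groups), 8 had 1 sample apart from the others by Dixon's ratio of gap to range; chance gives about 1 in 20. They were Rpl17 in BN control 1 (0.834), Rplp2 in BN control 4 (0.887), Rpl22l1 in BN procainamide 1 (0.893), Rpl23a in BN procainamide 4 (0.87), Rps2 in BN procainamide 1 (0.872), Rpl13a in SD procainamide 4 (0.754), Rpl17 in SD procainamide 1 (0.735) and Rpl5 in SD procainamide 3 (0.739).

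The response to procainamide differed between the strains, by the test of the difference itself, for 9 members (11.25%, against 7.54% of all named genes), all lower in BN rats on the log2 scale, among them Rpl27l2 (-1.03), Rpl17 (-0.587), Rps12 (-0.583), Rpl27a (-0.67), Rpl35 (-0.446), Rps4y2 (-0.623), Rpl14 (-0.496) and Rpl22 (-0.397).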

How the results depend on the processing

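The causes of the changes below were not tested. Fits to fewer arrays also leave fewer residual degrees of freedom. In BN rats the members lower numbered 9 with scanner ratios and 9 with the series matrix (11.25%, against 11.8% and 11.2% of all named genes). They numbered 44 with median centring (55%, against 15.1%), 0 with scan day (against 0.375%) and 0 with brightness as a term (against 1.92%). With only the groups compared there were 8 (10%, against 7.07%). Members higher numbered 1 with scanner ratios. The BN median was -0.083 with scanner ratios, -0.0894 with the matrix, -0.406 with centring and -0.237 without the self-comparison arrays. Leaving out 1 array gave 11 to 22 lower, 0 to 1 higher and a median from -0.237 to -0.163. In SD rats the median was -0.0748 with scaling between arrays and 0.263 with centring, which made 2 higher.

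For the strain difference the members lower numbered 5 with scanner ratios and with the matrix (6.25%, against 6.27% and 5.69% of all named genes). With scaling there were 4 (5%, against 5.07%), so the share was that of all genes. There were 16 in Cy5 alone (20%, against 13.8%), 5 of them among the 9 reported. Centring gave 52 (65%, against 8.18%), and scan day or brightness gave 0. The medians were -0.132 with scanner ratios, -0.14 with the matrix, -0.11 with scaling, -0.146 in Cy5 alone and -0.662 with centring. Leaving out 1 array gave 5 to 12 lower. In Cy5 alone the share of higher calls over all named genes rose from 8.99% to 20.7% in BN rats, beside 16.3% lower.

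For the control strains, centring gave 67 higher, 0 lower and a median of 0.614. Scan day gave 1, 0 and -0.0359, brightness 1, 0 and -0.0482, and leaving out the self-comparison arrays 4 lower; leaving out 1 array gave 6 to 12 higher and 4 to 9 lower. Centring moved the median of all named genes from -0.0604 to 0.0513.

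Single genes turned sign as follows. Rpl22l1 in BN rats was 0.108 and the strain difference of Rpl14 was 0.000655 in Cy5 alone. In the control strains under centring they were Rpl14 0.687, Rps29 0.389, Rps2 0.64, Rpl34 0.263, Rpl35a 0.457, Rps19 0.615, Rps6 0.373, Rpl4 0.474, Rplp2 0.567, Rpl3 0.52, Rpl22 0.584, Rpl36a 0.434, Rps14 0.439 and Rpl39 0.185. With the mean over probes Rps2 was 0.196 and Rps6 0.0175, and with scan day Rpl27a was -0.0115.

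Replicate numbers were shared between groups. Correlations of same-numbered samples, each as its deviation from the group mean, ran from -0.523 to 0.129. Differently numbered samples were not set beside them, so this does not tell whether the numbers stand for a pairing. The reported fit does not pair them. With the replicate block 9 members were lower in BN rats (11.25%, against 9.03% of all named genes) and 1 in the strain difference (1.25%, against 3.81%).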
